A study of Rattus norvegicus with 6 samples.

Results

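The genes of antigen presentation by the major histocompatibility complex (MHC, called RT1 in the rat) were read in rat liver RNA-seq. They are the 40 rows, of 25926 in the deposited table, whose symbol starts with RT1- or is B2m, Tap1, Tap2, Tapbp, Cd74, Ciita, Nlrc5, Cd80 or Cd86. Of them 9 are class II rows (symbols starting with RT1-B or RT1-D) and 31 are the rest. The 3 control rats received 0.9% saline. The other 3 were fed through a vein for 7 days (total parenteral nutrition, TPN) and are labelled with parenteral nutrition-associated liver disease (PNALD). The stock was Sprague-Dawley and the labelled age 4 weeks for all. The labels do not say what the controls ate, nor whether the livers were handled in batches. Values are FPKM, fragments scaled by transcript length and library size, so levels of different genes can be set beside each other. Depth is unknown.

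Class I molecules pair an RT1 heavy chain with beta-2-microglobulin, and show peptides made in the cytosol to CD8 T cells on nearly all nucleated cells. The peptides are cut by the proteasome, pumped into the endoplasmic reticulum by TAP and loaded with the help of tapasin. Class II molecules pair an alpha and a beta chain, show peptides taken up from outside to CD4 T cells, and are made mainly by B cells, dendritic cells and macrophages, which in the liver include Kupffer cells. CIITA switches on class II genes and NLRC5 class I genes, both through a promoter module of X and Y boxes, while interferons act through IRF and STAT sites.

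The promoter module is shown as sequence background. A link between the module and the class II values was not tested. Promoter sequences, from 250 bases before to 50 after each gene's start, were taken from RefSeq (GRCr8) and matched 34 of the 40 members by symbol, among them 8 of the class II rows. Each line gives 70 bases on the gene's strand, 5′ to 3′. Capitals mark the X-like letters ACNGATG and the Y box letters GATTGG. The letters were chosen after these promoters had been read.
RT1-Da: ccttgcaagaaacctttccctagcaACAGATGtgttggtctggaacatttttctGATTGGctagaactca
RT1-Db1: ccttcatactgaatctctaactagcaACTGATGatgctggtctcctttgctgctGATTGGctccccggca
RT1-Bb: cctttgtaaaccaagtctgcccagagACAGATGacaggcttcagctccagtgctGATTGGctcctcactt
RT1-Ba: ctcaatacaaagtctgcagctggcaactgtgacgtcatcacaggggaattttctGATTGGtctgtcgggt
RT1-DMa: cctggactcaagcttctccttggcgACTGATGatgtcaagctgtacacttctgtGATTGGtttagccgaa
The windows lie at chr20:4515311-4515380 (plus strand), chr20:4560228-4560297 (minus), chr20:4604165-4604234 (minus), chr20:4576959-4577028 (plus) and chr20:4712385-4712454 (minus), all in GRCr8. GATTGG stood on the gene's strand in all 8 class II promoters, in 5 of 26 other members' promoters and in 8.02% of all 33469 promoters. With both strands counted (reverse complement CCAATC) the shares were 8 of 8, 12 of 26 and 14.8%. The X-like letters, on either strand (reverse complement CATCNGT), were in 6 of 8 class II promoters (RT1-Da, RT1-Db1, RT1-Db2, RT1-Bb, RT1-DMa and RT1-DOb), in 5 of 26 others (RT1-CE3, RT1-CE4, RT1-CE5, RT1-CE10 and RT1-M3-1) and in 10.2% of all promoters. X-like letters followed by GATTGG, both on the gene's strand and with first bases less than 50 apart, were found in 23 promoters of the table (0.0687%), 6 of them those of the class II genes just named and none of another member. In these 6 genes 19 to 22 bases lie between the boxes. The promoters of RT1-Ba and RT1-DOa hold the Y letters and not the X-like letters as spelled.

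For class I, the interferon-response letters GAAANNGAA (reverse complement TTCNNTTTC, in capitals) are shown for B2m, RT1-S3 and the transporter genes, whose values were lower in every TPN rat.
B2m: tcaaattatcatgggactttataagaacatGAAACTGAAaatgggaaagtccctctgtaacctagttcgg
RT1-S3: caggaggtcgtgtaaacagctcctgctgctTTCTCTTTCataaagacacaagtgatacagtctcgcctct
Tap1: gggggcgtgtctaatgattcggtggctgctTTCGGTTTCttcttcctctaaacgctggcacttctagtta
Tap2: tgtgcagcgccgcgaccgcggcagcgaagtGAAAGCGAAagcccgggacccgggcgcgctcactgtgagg
These windows lie at chr3:129549150-129549219 (plus strand), chr20:2675387-2675456 (plus), chr20:4668624-4668693 (minus) and chr20:4652298-4652367 (minus) in GRCr8. The letters were in 8 of 26 members outside class II (B2m, Tap1, Tap2, Tapbp, RT1-S2, RT1-S3, RT1-N3 and Cd80), in 0 of 8 class II promoters and in 9.71% of all promoters. The genes shown have both the letters and the lower values, as does Tapbp. RT1-CE5 and RT1-T24-4 were also lower in every TPN rat and lacked the letters. RT1-N3, RT1-S2 and Cd80 held the letters, and their groups overlapped. A link between letters and values was not tested. Among the members motif matches overlapped only between 2 copies of the interferon-response letters, in Tapbp and in RT1-N3. A match describes letters and no binding was measured.

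The RT1 region differs between rats: Sprague-Dawley is an outbred stock, and the reference genome is of another strain. Many class I RT1 genes are near-identical to each other, reads can fit several of them, and the share of FPKM given to each is therefore uncertain; RT1 genotype was not tested. Control 2 and TPN 1 stood apart from the other libraries. The summed FPKM of 14 acute-phase genes was 22618, 58406 and 22984 in controls 1, 2 and 3 and 107259, 50277 and 41260.3 in TPN 1, 2 and 3. Control 2 and TPN 1 were each the highest of their group. The hepatocyte gene Alb, albumin, measured 30697 to 48388 FPKM in all libraries but TPN 1, where it was 12828, so the labelled tissue carried its defining marker. Labels name the rats as separate samples, and p-values measure the spread between these rats; an exact test of 3 against 3 could not go below p = 0.1. For several results the value without control 2 or TPN 1 is given. For the named members tested, the range with 1 rat left out is given at the end.

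Class II values overlapped between the groups and differed more between rats of a group than between the group means. In control 2 every one of the 9 class II rows had its highest value, and the summed class II FPKM was 53.3, 308 and 47.0 in controls 1, 2 and 3 and 159.9, 92.5 and 58.8 in TPN 1, 2 and 3. Control 2 was 6.15 times the mean of the other controls, and TPN 1 was 2.11 times the mean of the other TPN rats. Of 6 class II rows with a mean of at least 1 FPKM, all 6 had control 2 highest and TPN 1 next, an order that 2.53% of all 11362 features showed; control 2 was the highest rat in 8.14% of features. The order was not particular to class II: all 3 tested B cell marker genes and both tested genes of the T and NK cell list, Cd4 and Prf1, had it. Control 2 was highest in 11 of the 24 tested members outside class II (45.8%).

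**Figure D1:**
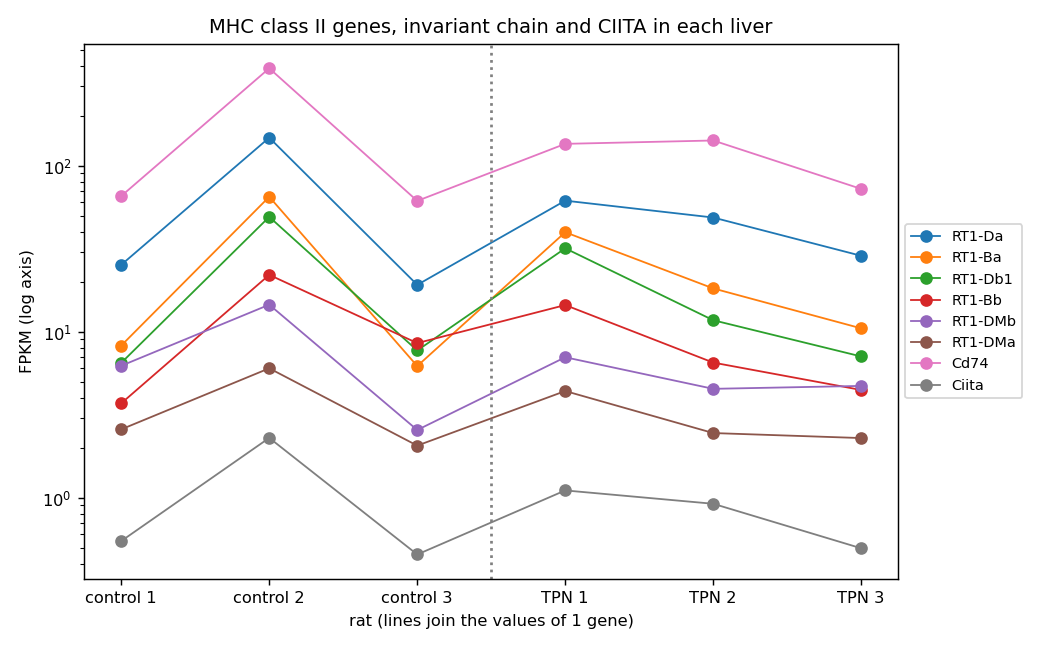
FPKM (log axis) of 6 class II genes, the invariant chain gene Cd74 and Ciita in each of the 6 livers, with a line joining the values of each gene. Control 2 is the highest rat for all 8 genes, and controls 1 and 3 lie below every TPN rat for RT1-Da, RT1-Ba and Cd74. The same holds for 1567 of 11325 features tested without control 2.

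RT1-Da, the alpha chain of RT1.D (the rat counterpart of HLA-DR), measured 25.3, 147 and 19.1 FPKM in controls 1, 2 and 3 and 61.5, 48.7 and 28.6 in TPN 1, 2 and 3. Its partner RT1-Db1, the beta chain, measured 6.48, 49.1 and 7.69 FPKM in controls 1, 2 and 3 and 31.7, 11.7 and 7.08 in TPN 1, 2 and 3. In both, control 2 and then TPN 1 were high and the groups overlapped. RT1-Ba, the alpha chain of RT1.B (the counterpart of HLA-DQ), measured 8.24, 64.9 and 6.20 FPKM in controls 1, 2 and 3 and 39.7, 18.2 and 10.5 in TPN 1, 2 and 3. Its beta chain RT1-Bb measured 3.70, 22.0 and 8.52 FPKM in controls 1, 2 and 3 and 14.5, 6.51 and 4.45 in TPN 1, 2 and 3. RT1-Ba had the widest range of the tested class II rows, 10.5-fold from control 3 to control 2, and RT1-Da and RT1-Db1 ranged 7.70-fold and 7.58-fold. A second beta chain row, RT1-Db2, was listed at 0 in controls 1 and 3, at 2.40 FPKM in control 2 and at 0.0421, 0.0610 and 0.0877 in TPN 1, 2 and 3.

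The peptide editor RT1-DM, which takes the invariant chain peptide out of class II, followed the same order with a smaller range. RT1-DMa measured 2.58, 6.01 and 2.06 FPKM in controls 1, 2 and 3 and 4.39, 2.45 and 2.28 in TPN 1, 2 and 3. RT1-DMb measured 6.22, 14.5 and 2.55 FPKM in controls 1, 2 and 3 and 7.01, 4.52 and 4.71 in TPN 1, 2 and 3. The groups overlapped in both. RT1-DO, which holds RT1-DM back, was scarce. RT1-DOa measured 0.435, 1.24 and 0.317 FPKM in controls 1, 2 and 3 and 0.473, 0.272 and 0.785 in TPN 1, 2 and 3. RT1-DOb measured 0.422, 0.840 and 0.528 FPKM in controls 1, 2 and 3 and 0.615, 0.137 and 0.347 in TPN 1, 2 and 3. Both were highest in control 2 and lowest in TPN 2.

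Cd74, the invariant chain that blocks the class II groove and guides it to endosomes, measured 65.5, 386 and 61.3 FPKM in controls 1, 2 and 3 and 135, 142 and 72.3 in TPN 1, 2 and 3. Ciita, the class II coactivator, measured 0.548, 2.29 and 0.454 FPKM in controls 1, 2 and 3 and 1.105, 0.918 and 0.495 in TPN 1, 2 and 3. Both were highest in control 2, 6.08 and 4.57 times the mean of the other controls, and controls 1 and 3 were the lowest rats of all but for TPN 3, which lay between them in Ciita. RT1-Ha, a class II-like row that the symbol rule puts outside class II, reached 0.264 FPKM in control 2 and was listed at 0 in TPN 2.

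No class II row passed limma's test of TPN against control (Benjamini-Hochberg adjusted p under 0.05), where 0.246% of all features passed. None had an unadjusted p under 0.05 and in none were the groups apart. Log2 fold changes were positive in 3 and negative in 3 of the 6 tested rows, and their median was -0.047 beside 0.0065 over all features. RT1-Da had a log2 fold change of 0.077 with a standard error of 0.77 and adjusted p = 0.982 by limma. RT1-Ba, the largest positive value, had a log2 fold change of 0.34 with a standard error of 0.92 and adjusted p = 0.932 by limma. The sign depended on the scale. On the linear FPKM scale the TPN mean was the lower one in all 6 tested rows, at 26.4 ± 33.3 FPKM in the control group and 22.8 ± 15.1 in the TPN group for RT1-Ba and 63.9 ± 72.3 FPKM in the control group and 46.3 ± 16.6 in the TPN group for RT1-Da (SD, n = 3). Standard errors of the class II chains ran from 0.64 to 0.92 on the log2 scale. The direction depended on single rats. Without control 2 all 6 rows were positive (median 0.63), and 0 members passed. RT1-Ba and RT1-Da, 2 of the 6 rows, were then higher in every TPN rat than in controls 1 and 3, as was Cd74. Of all features tested without control 2, 1567 of 11325 were higher in every TPN rat. Without control 2 and TPN 1 together the median was 0.24, with 5 of 6 rows positive. With 1 other rat left out, control 1, control 3 or TPN 1, it was -0.25, -0.36 and -0.36, with no row positive in any of these, and without TPN 3 it was 0.24.

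Summed markers of the cells that make class II also differed between rats, by smaller factors than the class II sum. The summed FPKM of 10 B cell genes was 25.0 in control 2, 2.38 times the mean of the other controls (10.1 and 10.9), and 12.9 to 19.8 in TPN, highest in TPN 1. Of these genes 6 were highest in control 2, and 6 stayed under 1 FPKM in every rat. Pax5, which defines the B lineage and was near the floor throughout, was listed at 0 in control 2, TPN 1 and TPN 2. The 10 dendritic cell genes summed to 11.3 in control 2, 2.36 times the other controls, and to 5.76 to 10.6 in TPN, with 5 under 1 FPKM in every rat. The 11 Kupffer cell and macrophage genes summed to 735 in control 2 (1.32 times the other controls), 489 to 623 in those, and 609 to 904 in TPN, where TPN 1 was the highest of all rats. The 12 T and NK cell genes summed to 28.04 in control 2, 16.7 and 20.5 in the other controls and 18.8 to 23.7 in TPN. Of the 12 genes 6 were highest in control 2, and 8 stayed under 1 FPKM in every rat. Cd4 gave most of this sum, at 16.7, 21.2 and 12.8 FPKM in controls 1, 2 and 3 and 17.6, 16.9 and 15.2 in TPN 1, 2 and 3. The T cell genes Cd3e, Cd3d and Cd3g had means of 0.225, 0.106 and 0.289 FPKM over all rats. The sum is therefore mainly a reading of Cd4 and no measure of T cells. The ratio of control 2 to the other controls was 1.596 for 8 pan leukocyte genes and 2.77 for 8 monocyte and neutrophil genes, against 6.15 for the class II sum. Single genes did not all follow the sums. Over class II rows above 0 in the other controls the ratio ran from 1.77 (RT1-DOb) to 8.99 (RT1-Ba). Among dendritic cell genes Batf3 measured 0.973, 3.64 and 0.776 FPKM in controls 1, 2 and 3, and Zbtb46 1.23, 1.33 and 0.832. No listed marker of these kinds was at 0 in all 6 rats. The part of cell numbers in the class II values was not tested, and in bulk tissue fewer cells of a type and less RNA per cell cannot be told apart.

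**Figure D2:**
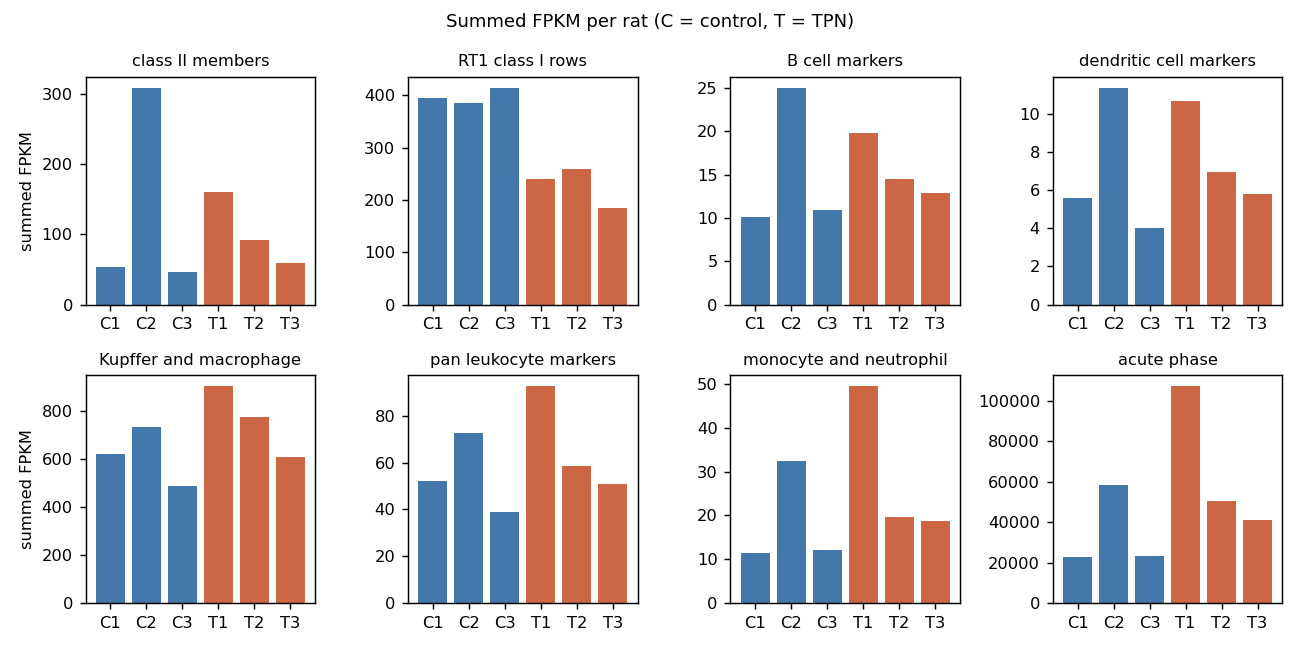
Summed FPKM per rat for the class II rows, the RT1 class I rows and 6 lists of other genes, blue for controls and orange for TPN. Class II is highest in control 2 at 308, whereas RT1 class I runs from 384 to 414 in controls and 185 to 259 in TPN.

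Class I differed from this: it was lower in TPN liver in sum, with little spread among controls, and no member of it passed the test. The 21 RT1 class I rows summed to 394, 384 and 414 FPKM in controls 1, 2 and 3 and to 241, 259 and 185 in TPN 1, 2 and 3. The sum was formed after the values were seen and has no test. RT1-A and RT1-CE rows gave 147, 184 and 216 of it in controls and 169.7, 104 and 85.8 in TPN, where TPN 1 lay above control 1. The nonclassical RT1-M, N, S and T24 rows gave 248, 200.4 and 198 in controls and 70.8, 155 and 98.8 in TPN, with TPN 1 lowest. The groups did not overlap in the whole sum, and its mean was 398 ± 14.9 in control and 228 ± 38.8 in TPN (SD, n = 3), 1.74-fold lower. As a ratio of TPN to control it was 0.574, from 0.535 to 0.628 with 1 rat left out, and 0.586, 0.610 and 0.584 under median-ratio, quantile and TPM scaling. Leaving out RT1-S3, the most abundant row, gave 263 ± 21.7 and 170.1 ± 39.9 FPKM. Class II per unit of RT1 class I, in summed FPKM, was 0.135, 0.802 and 0.114 in controls and 0.665, 0.357 and 0.319 in TPN.

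No member outside class II passed limma's test either (lowest adjusted p = 0.184), and the lower values below are differences that did not pass. Of the 40 members 30 had a mean of at least 1 FPKM and were tested, 24 of them outside class II. The 10 below it were RT1-Db2, RT1-DOa, RT1-DOb, Ciita (mean 0.968 FPKM), Cd80, RT1-Ha, RT1-M4, RT1-M5, RT1-M6-2 and RT1-S2. Of the 24 tested outside class II, 23 had negative log2 fold changes, where 49.1% of all features did, and their median was -0.41. In 7 of them every TPN rat lay below every control, and in none above, which is 29.2% against 9.09% of all features. At an unadjusted p under 0.05 there were 6 lower and 0 higher, against 7.01% and 4.44% of all features. Fewer rats make separation easier in all features, so each count stands beside the share over all features. The count without overlap was 11 of 25 (all features 11.8%) without control 3, 11 of 24 (all features 12.8%) without TPN 1, 7 of 24 (all features 19.1%) without control 2, and 11 of 24 (all features 23.2%) without control 2 and TPN 1. After median-ratio scaling it was 5 (all features 9.96%), with B2m and Tapbp no longer apart, and after quantile normalisation 4 (all features 9.36%), with B2m, Tapbp and RT1-CE5 no longer apart. Without control 2 only 17 of 24 were negative, and without TPN 1 20 of 24.

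**Figure D3:**
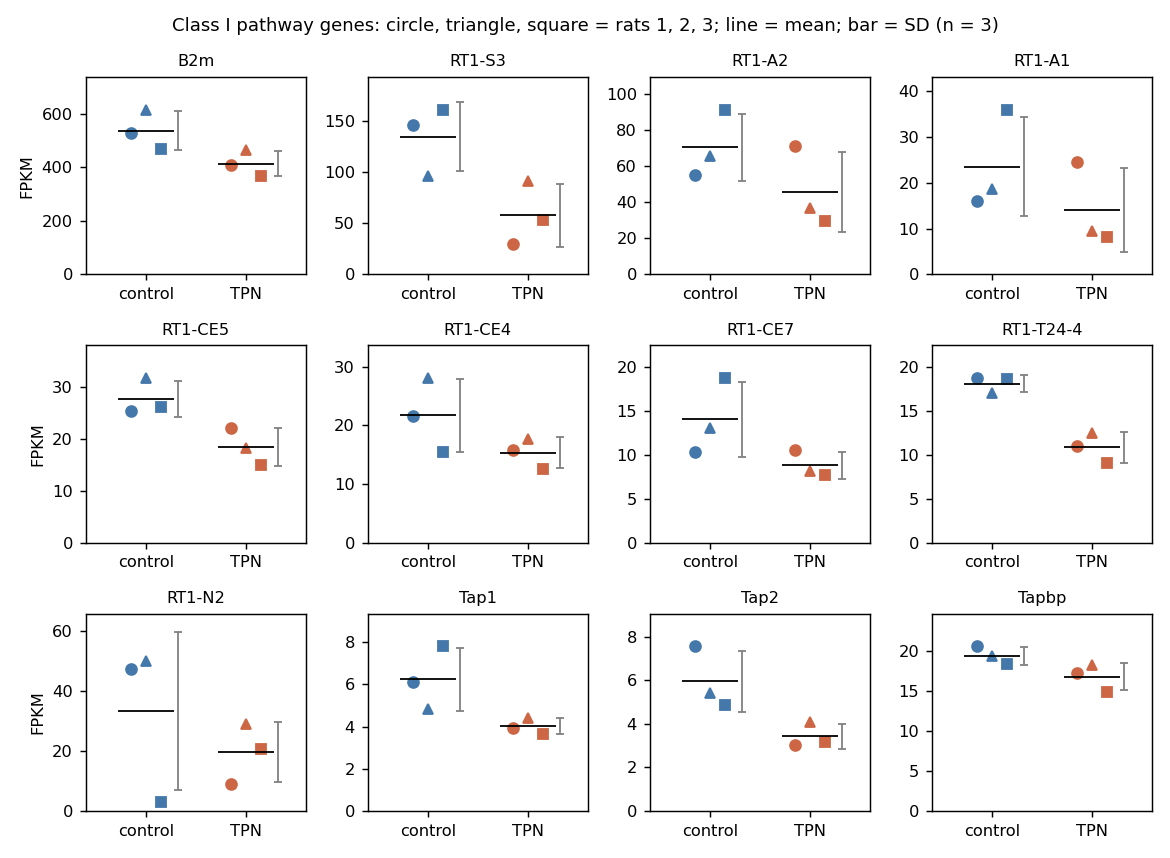
FPKM of 12 class I pathway genes in control (blue) and TPN (orange) livers. Symbols mark rats 1, 2 and 3, lines the mean and grey bars the SD (n = 3). B2m, RT1-S3, RT1-CE5, RT1-T24-4, Tap1, Tap2 and Tapbp show no overlap between the groups, while RT1-A1, RT1-A2 and RT1-N2 spread widely within them.

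RT1-S3, a nonclassical class I chain related to mouse Qa-1 and human HLA-E, was the most abundant RT1 class I row. It measured 146, 96.5 and 161 FPKM in controls 1, 2 and 3 and 29.5, 91.0 and 53.3 in TPN 1, 2 and 3. Every TPN rat lay below every control, TPN 1 furthest, and the mean was 2.32-fold lower (log2 fold change of -1.31 with a standard error of 0.40 and adjusted p = 0.310 by limma). Its log2 fold change was -1.53 without control 2 and ran from -1.70 to -0.91 with 1 rat left out. RT1-T24-4, another nonclassical class I gene, measured 18.8, 17.0 and 18.6 FPKM in controls 1, 2 and 3 and 11.1, 12.5 and 9.05 in TPN 1, 2 and 3. Its values lay close together within each group, and it had the lowest p of the members (log2 fold change of -0.70 with a standard error of 0.16 and adjusted p = 0.184 by limma).

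RT1-A2, of the classical class I genes, measured 54.9, 65.6 and 91.0 FPKM in controls 1, 2 and 3 and 70.9, 37.0 and 29.4 in TPN 1, 2 and 3. RT1-A1 measured 16.0, 18.6 and 35.9 FPKM in controls 1, 2 and 3 and 24.6, 9.46 and 8.16 in TPN 1, 2 and 3. In both, control 3 was highest and TPN 1 exceeded controls 1 and 2, so the groups overlapped (log2 fold change of -0.68 with a standard error of 0.34 and adjusted p = 0.502 by limma for RT1-A2 and log2 fold change of -0.78 with a standard error of 0.46 and adjusted p = 0.575 by limma for RT1-A1). RT1-CE10, of the RT1-C/E region, showed the same order and measured 9.48, 11.7 and 20.97 FPKM in controls 1, 2 and 3 and 13.9, 5.41 and 4.89 in TPN 1, 2 and 3. Without TPN 1 the log2 fold change was -1.04 for RT1-A2, -1.24 for RT1-A1 and -1.22 for RT1-CE10, against -0.79 with all rats for RT1-CE10. RT1-CE7 measured 10.3, 13.1 and 18.7 FPKM in controls 1, 2 and 3 and 10.6, 8.10 and 7.75 in TPN 1, 2 and 3, with control 1 below TPN 1.

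RT1-CE5 measured 25.5, 31.7 and 26.1 FPKM in controls 1, 2 and 3 and 22.2, 18.2 and 14.99 in TPN 1, 2 and 3. Its groups did not overlap, with 27.8 ± 3.44 FPKM in the control group and 18.5 ± 3.59 in the TPN group (log2 fold change of -0.57 with a standard error of 0.19 and adjusted p = 0.331 by limma). RT1-CE4 measured 21.7, 28.04 and 15.5 FPKM in controls 1, 2 and 3 and 15.9, 17.7 and 12.6 in TPN 1, 2 and 3, and control 3 lay among the TPN rats. The remaining rows of this region, RT1-CE1 and RT1-CE3, measured 2.96 to 9.23 and 3.11 to 6.08 FPKM, both highest in control 2, with overlap. All 8 RT1-A and RT1-CE rows had negative log2 fold changes, from -0.79 to -0.086. They are near-identical copies and not independent observations.

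Some nonclassical rows differed between rats of a group more than between groups. RT1-N2 measured 47.3, 50.2 and 2.93 FPKM in controls 1, 2 and 3 and 9.05, 29.2 and 20.7 in TPN 1, 2 and 3, a 17.1-fold range within the controls alone. Its log2 fold change was -0.19 (SE 1.07) and turned positive without control 1, without control 2 or without TPN 1. RT1-T24-1 measured 12.0, 6.81 and 0.837 FPKM in controls 1, 2 and 3 and 1.90, 2.24 and 2.18 in TPN 1, 2 and 3. In both control 3 was the lowest rat of all, while controls 1 and 2 were the highest, and RT1-N3 (8.70, 8.31 and 2.63 FPKM in the controls, 3.15, 6.26 and 4.02 in TPN) showed that too. RT1-T24-1 had the second most negative log2 fold change of the members, -0.88 (SE 0.68), with control 3 below every TPN rat. It was -1.70 without control 3 and -0.29 without control 1. RT1-T24-3 ran from 3.82 to 8.67 FPKM and was highest in TPN 2. RT1-M3-1, whose mouse counterpart presents formylated peptides, ran from 0.957 to 2.36 FPKM. RT1-M2 ran from 1.57 to 9.12 FPKM and shared the class II order, with control 2 highest and TPN 1 next. RT1-M6-1 and RT1-M6-2 reached 4.23 and 1.29 FPKM, both in control 3, RT1-S2 stayed at or below 0.0994 FPKM, and RT1-M4 and RT1-M5 were listed at 0 in all rats.

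The light chain and the transporter and tapasin genes were lower in every TPN rat than in any control in FPKM as deposited, without passing the test. B2m, the most abundant member, measured 528, 614 and 469 FPKM in controls 1, 2 and 3 and 409, 463 and 368 in TPN 1, 2 and 3. The groups were adjacent and did not overlap (537 ± 72.9 FPKM in the control group and 414 ± 47.7 in the TPN group; log2 fold change of -0.37 with a standard error of 0.22 and adjusted p = 0.561 by limma). Its log2 fold change was -0.16 after quantile normalisation, where the groups overlapped, and -0.21 with arrayWeights; under median-ratio scaling, at -0.36, they overlapped too. Tap2, a subunit of the peptide pump, measured 7.54, 5.40 and 4.87 FPKM in controls 1, 2 and 3 and 3.03, 4.09 and 3.18 in TPN 1, 2 and 3, which was 1.73-fold lower in the mean (log2 fold change of -0.63 with a standard error of 0.19 and adjusted p = 0.277 by limma). Tap1, the other subunit, measured 6.11, 4.83 and 7.80 FPKM in controls 1, 2 and 3 and 3.95, 4.41 and 3.66 in TPN 1, 2 and 3 (1.56-fold lower; log2 fold change of -0.52 with a standard error of 0.18 and adjusted p = 0.356 by limma). Tapbp, tapasin, measured 20.6, 19.4 and 18.3 FPKM in controls 1, 2 and 3 and 17.3, 18.2 and 14.9 in TPN 1, 2 and 3, with a gap between the groups of less than 1 FPKM that closed under median-ratio scaling and quantile normalisation (log2 fold change of -0.20 with a standard error of 0.15 and adjusted p = 0.673 by limma). Nlrc5, the class I coactivator, measured 1.049, 1.48 and 0.970 FPKM in controls 1, 2 and 3 and 0.779, 1.24 and 1.16 in TPN 1, 2 and 3. Its values overlapped (log2 fold change of -0.073 with a standard error of 0.17 and adjusted p = 0.918 by limma), and without control 2 its log2 fold change was 0.028.

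Cd86, a costimulatory ligand of CD28 and CTLA4 on antigen-presenting cells, measured 1.36, 3.28 and 1.27 FPKM in controls 1, 2 and 3 and 2.61, 2.63 and 1.51 in TPN 1, 2 and 3. Control 2 was highest and controls 1 and 3 lowest, and it was the only tested member outside class II with a positive log2 fold change (log2 fold change of 0.17 with a standard error of 0.28 and adjusted p = 0.867 by limma). Cd80, its relative, measured 0.0116, 0.0997 and 0.0558 FPKM in controls 1, 2 and 3 and 0.0513, 0.0267 and 0.0312 in TPN 1, 2 and 3, highest in control 2.

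**Figure D4:**
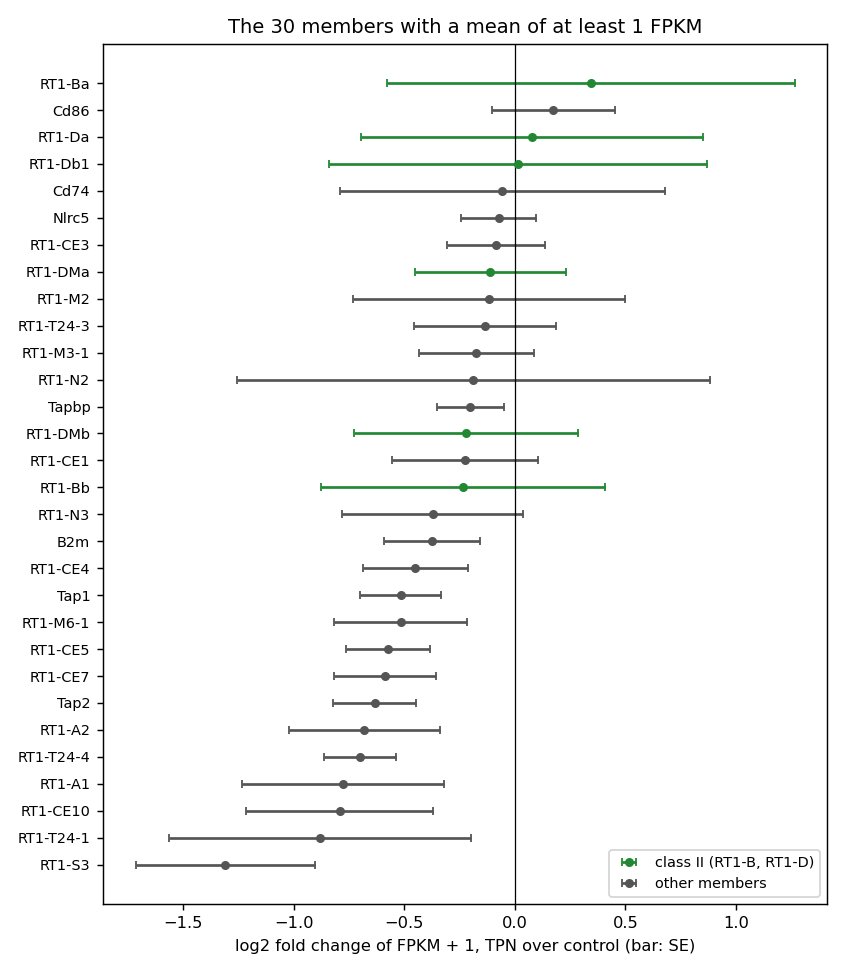
Log2 fold change of FPKM + 1, TPN over control, with its standard error, for the 30 tested members; class II in green. RT1-S3 is the most negative at -1.31, class II genes scatter about 0 with wide errors, and no member passed the test.

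Class I values were set beside markers of other cells. The 9 hepatocyte genes summed to 68023 to 83024 FPKM in control and 54748 to 74761 in TPN, with overlap, and the Kupffer cell, pan leukocyte and sinusoidal endothelial sums overlapped too (90.6 to 139 and 113 to 139 FPKM for 6 endothelial genes). These sums cover single markers whose groups did not overlap. 3 of 11 Kupffer cell and macrophage genes were higher in every TPN rat, where 8.02% of all features were: Marco (67.9 ± 5.76 FPKM in the control group and 136 ± 37.2 in the TPN group), Cd68 (17.5 ± 4.89 FPKM in the control group and 27.6 ± 4.61 in the TPN group) and Cd163 (19.4 ± 5.85 FPKM in the control group and 28.5 ± 1.86 in the TPN group). The hepatocyte gene Ttr, transthyretin, was lower in every TPN rat (6789 ± 2267 FPKM in the control group and 2507 ± 842 in the TPN group). That was 1 of 9 hepatocyte genes (11.1%), against 9.09% of all features. Stellate cell genes (7) summed to 138 to 206 in control and 96.2 to 135 in TPN, and cholangiocyte genes (6) to 15.2 to 23.6 and 11.2 to 14.96, both without overlap but by narrow gaps. Col3a1 made up most of the stellate sum (109 ± 26.8 FPKM in control and 64.0 ± 11.7 in TPN), and 1 of 6 tested stellate genes was positive. Lower without overlap were 2 of 6 tested stellate genes (33.3%) and 2 of 3 tested cholangiocyte genes (66.7%), against 9.09% of all features. None of these genes was at 0 in all rats. Their part in the class I values was not tested.

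Other genes of the pathway were read from 6 lists, none of whose genes passed the test. Of 12 genes of class I peptide cutting and loading, 8 had negative log2 fold changes (median -0.17) and 2 were lower without overlap, 16.7% against 9.09% of all features. These were Psmb9, an immunoproteasome subunit next to Tap1 in the MHC, with 27.997, 23.98 and 20.1 FPKM in controls 1, 2 and 3 and 11.7, 17.6 and 8.16 in TPN 1, 2 and 3 (log2 fold change of -0.94 with a standard error of 0.27 and adjusted p = 0.262 by limma), and Tapbpl, the tapasin-related protein TAPBPR, with 18.9, 15.8 and 16.3 FPKM in controls 1, 2 and 3 and 9.97, 14.3 and 10.1 in TPN 1, 2 and 3 (log2 fold change of -0.54 with a standard error of 0.18 and adjusted p = 0.338 by limma). Psmb8, the neighbouring immunoproteasome subunit, measured 40.9 ± 15.03 FPKM in the control group and 23.4 ± 11.6 in the TPN group and overlapped. The chaperone Calr, calreticulin, had a higher mean in TPN, with 474 ± 48.8 FPKM in the control group and 684 ± 188 in the TPN group and overlap. Of 9 class I related molecules 5 were tested and 4 were negative (median -0.34). Cd1d1, which presents lipids to NKT cells, measured 16.1, 11.2 and 16.9 FPKM in controls 1, 2 and 3 and 7.24, 9.79 and 10.3 in TPN 1, 2 and 3, lower in every TPN rat (log2 fold change of -0.63 with a standard error of 0.21 and adjusted p = 0.325 by limma). Azgp1, a secreted class I-like protein, also did not overlap (507 ± 39.9 FPKM in the control group and 389 ± 60.2 in the TPN group). These 2 of the 5 tested genes were 40%, against 9.09% of all features.

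Of 9 genes of class II processing 8 were tested, and 6 were positive (median 0.12). Lgmn, the endosomal protease legumain, measured 37.3, 40.6 and 31.6 FPKM in controls 1, 2 and 3 and 63.2, 59.2 and 44.7 in TPN 1, 2 and 3 and was higher in every TPN rat (log2 fold change of 0.59 with a standard error of 0.20 and adjusted p = 0.337 by limma). In no other gene of this list were the groups apart. Thus 1 of 8 tested genes was higher without overlap, where 8.02% of all features were. Of 11 factors of these promoters 5 were negative and 6 positive (median 0.056). Irf2, an interferon regulatory factor, measured 9.73, 11.7 and 11.0 FPKM in controls 1, 2 and 3 and 6.64, 6.13 and 7.64 in TPN 1, 2 and 3, lower in every TPN rat (log2 fold change of -0.60 with a standard error of 0.15 and adjusted p = 0.206 by limma). The other factors, among them the RFX and NF-Y subunits that bind the X and Y boxes, overlapped. Thus 1 of 11 factors (9.09%) was lower without overlap, the same share as over all features (9.09%). Nfya measured 2.78 ± 0.213 FPKM in the control group and 3.38 ± 1.03 in the TPN group.

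Of 12 genes of interferon gamma signalling 9 were tested and 6 were negative (median -0.074), and 2 (22.2% of those tested, against 9.09% of all features) were lower without overlap, the chemokines Cxcl10 (3.02, 2.24 and 3.59 FPKM in controls 1, 2 and 3 and 0.681, 1.36 and 2.08 in TPN 1, 2 and 3) and Cxcl9 (9.18, 7.25 and 7.44 FPKM in controls 1, 2 and 3 and 4.27, 6.002 and 6.74 in TPN 1, 2 and 3). Cxcl10 had a log2 fold change of -0.76 with a standard error of 0.24 and adjusted p = 0.317 by limma, and Cxcl9 a log2 fold change of -0.44 with a standard error of 0.19 and adjusted p = 0.435 by limma. Costimulatory genes were scarce, with 3 of 11 at a mean of at least 1 FPKM. Of those Icoslg, the ligand of ICOS, measured 17.7 ± 0.399 FPKM in the control group and 12.8 ± 2.42 in the TPN group, lower in every TPN rat (log2 fold change of -0.45 with a standard error of 0.17 and adjusted p = 0.385 by limma). Icoslg alone of these 3 was without overlap (33.3%, against 9.09% of all features). Cd274, which encodes PD-L1, measured 1.37 ± 0.439 FPKM in the control group and 0.902 ± 0.261 in the TPN group with overlap.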

How the data were processed

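RNA-seq of total RNA from 6 rat livers was measured. The authors deposited 1 FPKM table of 25926 rows; per the submitters' processing notes, tools were Bowtie 0.12.2 and Cufflinks with the Rnor_6.0 build. Whether counting used strand, and how reads shared by copies were treated, is not given in the sources used here. Low FPKM values showed no whole-read steps, so depth is unknown and no counting interval is given.

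The members and lists were chosen with earlier results of these data known. All rows with a mean of at least 1 FPKM (11362) were tested on log2(FPKM + 1), a scale that understates changes of low genes, with limma 3.58.1 (R 4.3.3; eBayes with trend and robust, statmod 1.5.0; 2-sided; Benjamini-Hochberg over all rows, 0.05). In simulated data the test called 32 of 100 genes with a log2 change of 1 and 95 of 100 with a change of 2. It also called 8 of 11162 unchanged genes. Not passing therefore does not show that a gene was unchanged. Named were the members of the class II, light chain, transporter, coactivator and costimulator groups, the 8 other RT1 rows with the highest means, the 5 largest log2 fold changes each way, and up to 4 genes of each list by smallest unadjusted p; other members are given by range. Of 83 pathway and 90 marker entries, 4 and 3 matched no row. Alternatives were pseudocounts, filters, scalings, weights, a replicate block and leaving rats out; leaving out control 2 with TPN 1, and those of the class I sum, were chosen after seeing the data. RefSeq promoters of GRCr8 serve as sequence only; no coordinates were converted.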

Additional observations from a re-analysis of the deposited data

How the results depend on the processing

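No member passed the adjusted threshold in any of 19 alternatives. Among the 23 named members tested (18 with a mean of at least 5 FPKM), limma's lowest adjusted p ran from 0.0506 (arrayWeights) to 0.705 (without control 1). Over all features the 28 calls became 18 with a pseudocount of 0.1, 5 with 0.01, 0 with no filter on low values, 6 with a mean of at least 5 FPKM, 0 after median-ratio scaling, 0 after quantile normalisation, 8 without trend and robust, 299 with arrayWeights and 121 without control 2 and TPN 1; with 1 rat left out they ran from 0 to 46. The cause was not tested. Members outside class II lower without overlap numbered 7 (all features 9.09%), 5 after median-ratio scaling (9.96%), 4 after quantile normalisation (9.36%), 7 to 11 with 1 rat left out (9.96% to 19.8%) and 11 without control 2 and TPN 1 (23.2%). Median log2 fold changes ran from -0.36 to 0.63 for class II and from -0.55 to -0.26 outside it with 1 rat left out.

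Some log2 fold changes reversed. Cd74 was 0.075 after quantile normalisation. With arrayWeights Nlrc5 was 0.060, RT1-N2 0.67, Cd74 0.66 and RT1-DMb 0.0026. Without control 2 and TPN 1 Nlrc5 was 0.13, RT1-N2 0.89, Cd74 0.67, RT1-DMb 0.15 and RT1-DMa 0.025. With 1 rat left out the range was -0.51 to 0.81 for Cd74, -0.14 to 0.029 for Nlrc5, -0.25 to 1.35 for RT1-Ba, -0.79 to 0.36 for RT1-Bb, -0.47 to 0.97 for RT1-Da, -0.55 to 0.89 for RT1-Db1, -0.35 to 0.25 for RT1-DMa, -0.74 to 0.32 for RT1-DMb and -1.41 to 0.44 for RT1-N2. Without a reversal, ranges with 1 rat left out were -1.70 to -0.29 for RT1-T24-1, -1.24 to -0.44 for RT1-A1, -1.04 to -0.42 for RT1-A2, -1.22 to -0.48 for RT1-CE10, -0.66 to -0.25 for RT1-CE4, -0.77 to -0.37 for RT1-CE7, -0.26 to -0.12 for Tapbp and 0.013 to 0.47 for Cd86. Also without a reversal were RT1-S3 (-1.70 to -0.91), B2m (-0.47 to -0.27) and RT1-CE5 (-0.71 to -0.44). The same held for Tap1 (-0.66 to -0.37), Tap2 (-0.75 to -0.48) and RT1-T24-4 (-0.80 to -0.59).

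A replicate block gave 58 calls over all features and 0 members. Same-numbered rats' deviations correlated from -0.21 to 0.32 and 2 of 6 rats correlated best with their own number, so the numbers were not taken as pairs. Depth behind each FPKM is unknown, which limits what rows near or under 1 FPKM show.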
